A study of Mus musculus with 16 samples.

Results

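The 46 genes described here act in the cell cycle, in its arrest or in the p53 response, which includes cell death. All were followed in endothelial cells sorted from mouse liver, lung and heart. They were chosen by name for what they do, with earlier results of these data known, and all 46 were found by symbol among the 52636 genes of the counts table. By role they are 16 genes of DNA replication, 13 genes of mitosis, 3 D cyclins, 6 inhibitors of cyclin-dependent kinases (CDKs) and 8 genes of the p53 and Gadd45 group. All 46 were among the 19646 genes that passed the filter on low counts. Controls are labelled wild type, and the other libraries are labelled as a double knockout of Erg and Fli1, a pair of genes for ETS transcription factors that act in endothelium. Tamoxifen, given to induce the deletion, is stated for both genotypes, and cells were collected at day 10 after it. Each group held 3 libraries in liver and in lung, and 2 in heart. Cells were live, lacked the leukocyte protein CD45, and carried CD31 and VE-cadherin, the latter stained by antibody injected into the living mouse. The age of the mice, the promoter that drives the Cre, whether the controls carry a Cre or floxed alleles, and any pooling of animals are not stated in the labels. Nothing in the labels says that replicates came from separate animals, so p-values measure the spread between these libraries, which may be technical in part.

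A resting cell enters the cycle when growth signals raise the D cyclins, which activate their kinases and release E2F factors from the retinoblastoma protein. E2F factors then drive the genes of DNA replication, and later the genes of mitosis are switched on together. CDK inhibitors hold the kinases back, and the p53 protein and the Gadd45 stress genes can impose arrest. Most endothelial cells of an adult vessel are at rest.

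Levels are given as CPM, the usual scaling of counts to each library's effective size. Total counts ran from 30226340 to 41449054 per library. Whole-gene counts of Erg were lower in the knockout-labelled libraries, with a log2 change of −1.31 in liver (adjusted p = 1.54e-05) and −0.52 in lung (adjusted p = 0.0231), while heart did not pass (−0.47, adjusted p = 0.0538). For Fli1 the log2 change was 0.38, 0.69 and 0.02 in liver, lung and heart, so its counts were not lower in any tissue and hardly moved in heart. Libraries are therefore called by their label throughout. The part that is deleted is not placed by the sources used here, and reads outside it still count. Endothelial markers stood high in all groups, at 20966 to 23174 CPM summed over 12 genes in liver controls and 10782 to 12753 CPM in knockout-labelled heart. By Xist and Y-linked genes, 5 libraries were male: number 2 of both groups in liver and in lung, and knockout-labelled heart 2. Both heart controls were female, so sex and genotype are partly confounded in heart.

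Promoters are shown first because the mitosis genes moved together from library to library and because Mcm3 was the 1 gene of the 6 MCM helicase subunits called lower in liver and in lung. RefSeq sequences for GRCm38.p6, from 250 bases before to 50 bases after the start site, matched 37 of the 46 genes. The genes without a match were Ccne2, Gins2, Mcm4, Ccna2, Foxm1, Aurkb, Ccnd1, Ccnd2 and Cdkn1c. The searched letters, on both strands, were TTTGAA or TTCGAA for the CHR element, which recruits regulators of mitotic genes, TTTCGCGC, TTTGGCGC or TTCCCGCC for E2F, CCAAT for the CCAAT box, and CCGGAAGT for ETS factors. An E2F match can overlap another E2F match. Capitals mark every match in these 6 promoters, printed 5′ to 3′ along the gene's own strand.
Ccnb2 promoter, chr9:70421505-70421804, minus strand: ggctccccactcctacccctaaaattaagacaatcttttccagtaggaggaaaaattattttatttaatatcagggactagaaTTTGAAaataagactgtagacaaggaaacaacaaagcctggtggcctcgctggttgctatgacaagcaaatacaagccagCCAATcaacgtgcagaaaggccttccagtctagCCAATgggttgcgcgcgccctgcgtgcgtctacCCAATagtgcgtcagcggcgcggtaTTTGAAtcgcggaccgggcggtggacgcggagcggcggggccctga
Cdk1 promoter, chr10:69352863-69353162, minus strand: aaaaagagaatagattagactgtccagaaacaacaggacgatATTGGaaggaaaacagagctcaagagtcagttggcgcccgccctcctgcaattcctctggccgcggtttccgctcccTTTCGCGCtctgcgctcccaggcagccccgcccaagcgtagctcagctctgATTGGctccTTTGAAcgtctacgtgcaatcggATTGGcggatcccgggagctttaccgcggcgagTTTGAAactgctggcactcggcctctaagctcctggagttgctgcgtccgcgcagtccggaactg
Ccnb1 promoter, chr13:100786437-100786736, minus strand: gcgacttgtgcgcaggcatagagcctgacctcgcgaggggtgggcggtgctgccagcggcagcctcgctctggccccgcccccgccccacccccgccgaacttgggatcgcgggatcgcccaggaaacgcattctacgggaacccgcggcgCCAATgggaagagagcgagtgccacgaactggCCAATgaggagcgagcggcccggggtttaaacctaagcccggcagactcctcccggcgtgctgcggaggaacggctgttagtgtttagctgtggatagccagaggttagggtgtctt
Mcm2 promoter, chr6:88898731-88899030, minus strand: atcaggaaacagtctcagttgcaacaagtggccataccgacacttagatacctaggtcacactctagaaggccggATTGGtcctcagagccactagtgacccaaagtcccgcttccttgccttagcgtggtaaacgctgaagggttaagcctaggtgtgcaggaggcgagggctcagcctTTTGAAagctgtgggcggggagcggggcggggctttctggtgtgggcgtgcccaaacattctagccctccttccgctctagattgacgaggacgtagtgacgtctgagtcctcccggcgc
Mcm3 promoter, chr1:20820263-20820562, minus strand: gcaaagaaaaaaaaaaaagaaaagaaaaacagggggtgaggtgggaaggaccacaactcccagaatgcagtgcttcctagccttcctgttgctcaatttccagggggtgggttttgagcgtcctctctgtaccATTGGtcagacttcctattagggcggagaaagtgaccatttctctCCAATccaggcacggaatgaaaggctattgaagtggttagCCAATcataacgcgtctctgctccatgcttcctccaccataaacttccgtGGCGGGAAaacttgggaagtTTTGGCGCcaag
Mcm6 promoter, chr1:128359656-128359955, minus strand: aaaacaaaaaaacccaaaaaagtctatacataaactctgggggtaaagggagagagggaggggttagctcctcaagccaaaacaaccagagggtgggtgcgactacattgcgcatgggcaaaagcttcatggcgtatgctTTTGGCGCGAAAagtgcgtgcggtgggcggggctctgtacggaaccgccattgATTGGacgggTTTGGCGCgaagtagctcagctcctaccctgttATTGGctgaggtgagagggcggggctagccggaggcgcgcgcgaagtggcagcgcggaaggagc

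Ccnb2 and Cdk1 are shown as mitosis genes that each hold 2 CHR matches and 3 CCAAT boxes. Cdk1 also holds an E2F match, which only 1 of the 10 matched mitosis genes has. In Ccnb2 the second CHR match began 5 bases after the start site, and in Cdk1 the nearer match began 15 bases before it. Ccnb1 is shown because it was the mitosis gene that passed the test in heart; these 300 bases hold 2 CCAAT boxes and none of the other letters. CHR letters stood in 8 of the 10 matched mitosis genes (80.0%), against 19.4% of 27025 genes with 1 promoter each. CCAAT boxes stood in 9 of these 10, against 37.9% of all genes. Of the 3 MCM promoters, Mcm3 has 2 E2F matches, Mcm6 has 3, and Mcm2 has none but holds a CHR match. E2F letters stood in 5 of the 13 matched replication genes (38.5%), against 3.03% of all genes. The ETS letters stood in 1 mitosis gene and 1 replication gene, 10.0% and 7.69% of those matched, against 4.0% of all genes. A match describes letters in this window and does not show that a factor binds.

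In liver, 12 of the 46 genes passed the test, 6 higher and 6 lower in knockout-labelled cells. That is read against 19.4% of all genes tested, 9.54% higher and 9.87% lower. The higher ones were led by arrest and stress genes (Gadd45a, Gadd45g, Cdkn1a, Cdkn2b), and the lower ones by the 3 D cyclins. In lung, 1 gene of the 46 passed, Mcm3, which was lower, against 8.46% of all genes (4.35% higher, 4.11% lower). In heart, 7 passed, 4 higher and 3 lower, against 19.3% of all genes (10.2% higher, 9.09% lower). The higher genes in heart belong to replication and mitosis (Gins2, Mcm2, Tyms, Ccnb1) and 2 of the lower ones are CDK inhibitors (Cdkn1b, Cdkn1c). The median log2 change of the 46 genes was −0.04 in liver, 0.17 in lung and 0.54 in heart, beside 0.02, −0.02 and 0.01 for all genes tested.

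**Figure D1:**
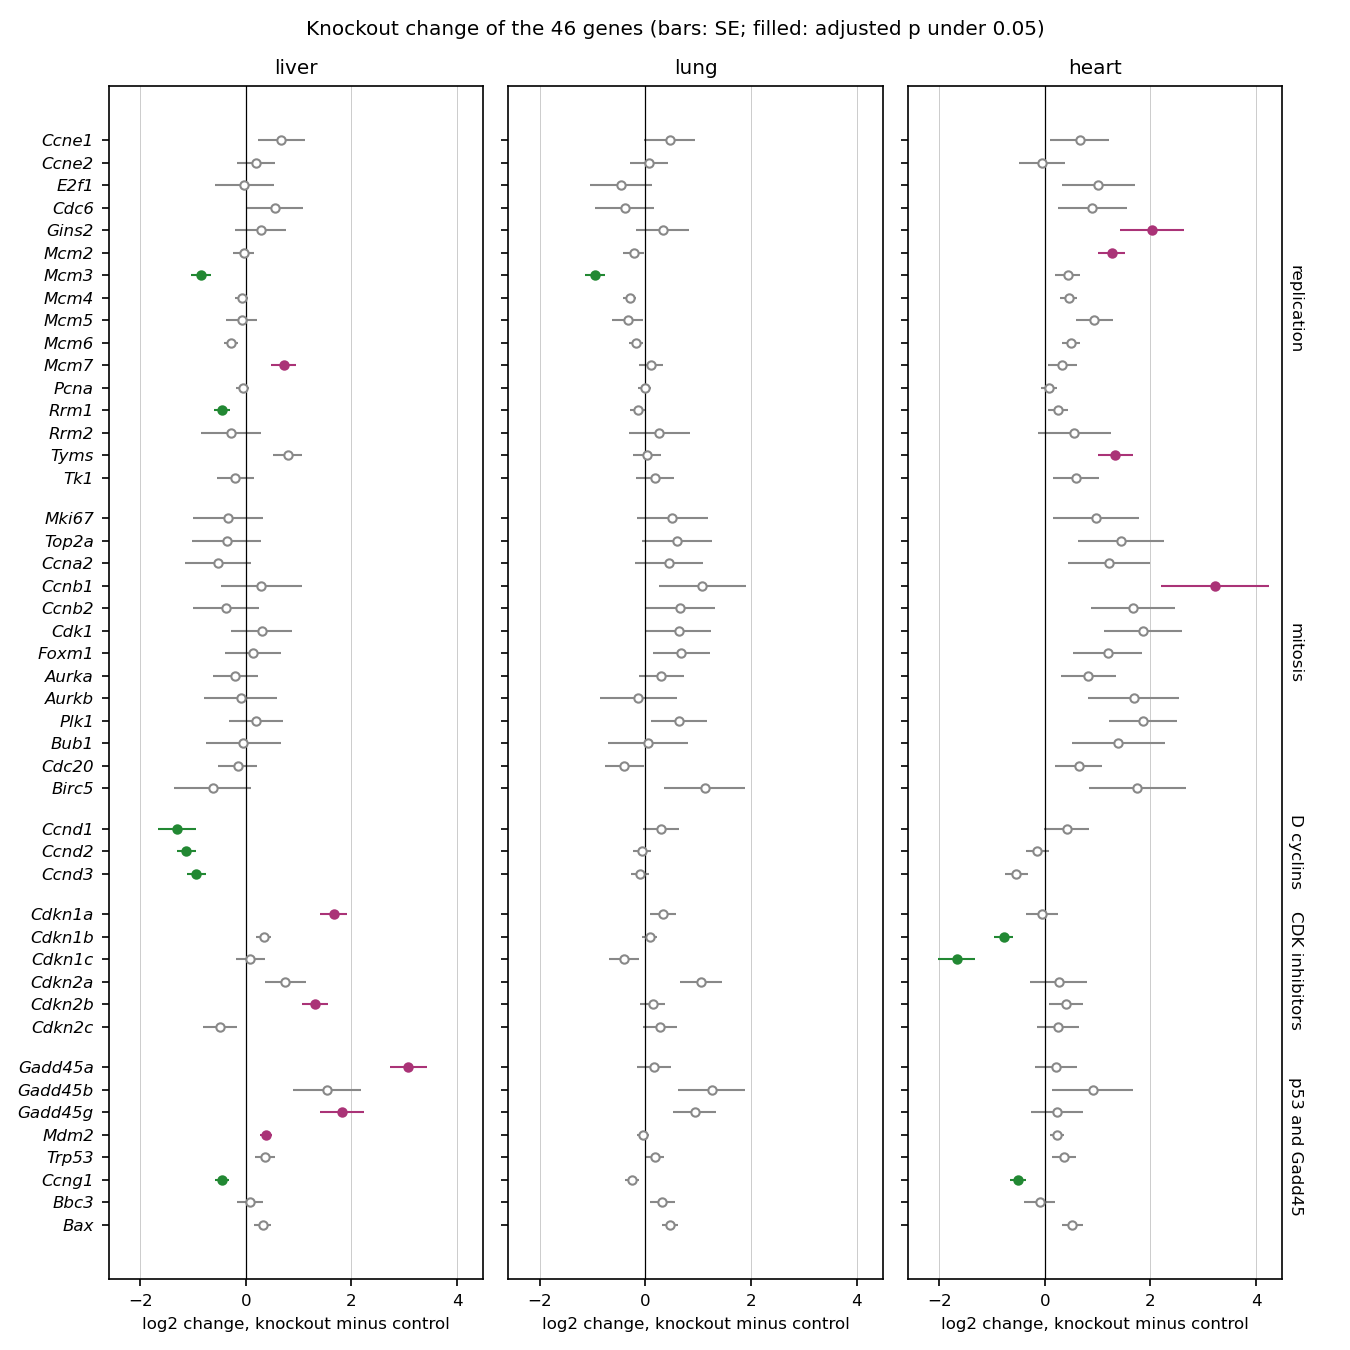
Log2 change between knockout-labelled and control libraries for each of the 46 genes (rows, by role) in liver, lung and heart; points are fitted changes, bars their standard errors, and filled points passed at an adjusted p under 0.05. The filled points in liver (12 genes) sit at the 3 D cyclins, at CDK inhibitors and genes of the p53 and Gadd45 group, and at 3 replication genes (Mcm3, Mcm7, Rrm1); the others sit at Mcm3 alone in lung, and at replication genes, Ccnb1, 2 CDK inhibitors and Ccng1 in heart (7 genes).

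Among the replication genes, Mcm3 was the one that fell in both liver and lung. Mcm3 (ENSMUSG00000041859, GRCm38 chromosome 1, 20802968 to 20820312, minus strand) encodes a subunit of the MCM helicase, which opens DNA at origins and is built from the products of Mcm2 to Mcm7 in equal parts. In liver, control libraries had 119, 118 and 110.0 CPM of Mcm3 and knockout-labelled libraries 92.7, 55.9 and 44.0 CPM. No liver library of one group overlapped the other, and the knockout-labelled values were spread widely while the controls were close. Lung controls had 39.7, 38.7 and 38.6 CPM against 19.6, 21.3 and 19.7 CPM. Both lung groups were tight and did not overlap. In the same lung libraries 7 of 12 lung epithelium markers were lower (2129 to 3342 CPM summed in controls, 369 to 596 CPM in the others), 5 of 12 endothelial markers were lower and 1 higher (21305 to 22044 against 13280 to 17196 CPM), and 4 of 8 megakaryocyte markers were higher (63.5 to 68.1 against 111 to 169.7 CPM). Leukocyte markers summed to 519.6 to 589 CPM in lung controls and 123 to 262 CPM in the others, with 1 of 18 called lower. The part of these markers in the lung result was not tested. In heart the order was the other way, with 39.5 and 35.8 CPM for the controls, below 53.5 and 48.2 CPM for the knockout-labelled pair. The log2 change was −0.85 in liver (SE 0.19, adjusted p = 0.00662) and −0.95 in lung (SE 0.19, adjusted p = 0.00811), and 0.43 in heart, which did not pass (SE 0.23, adjusted p = 0.221). The liver call ended with liver libraries fitted alone or without the libraries numbered 2 in the descriptions, and the lung call ended without the latter, with adjusted p up to 0.106 and 0.122.

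No other MCM subunit was called lower in liver or lung. Mcm7 rose in liver, from 14.7, 34.7 and 21.9 CPM to 44.7, 35.2 and 37.1 CPM (log2 change 0.72, SE 0.23, adjusted p = 0.0449). Control 2 reached almost the lowest knockout-labelled value, and this call ended in 14 of 23 other settings, with adjusted p up to 0.132. The other 4 subunits had log2 changes between −0.29 (Mcm6) and −0.04 (Mcm2) in liver, and between −0.34 (Mcm5) and −0.18 (Mcm6) in lung, none past the test. In lung, however, every knockout-labelled library lay below every control for Mcm4 (26.0 to 29.2 against 32.9 to 37.4 CPM), Mcm5 (7.35 to 11.7 against 11.9 to 12.4 CPM) and Mcm6 (35.5 to 38.0 against 40.7 to 41.5 CPM), as for Mcm3. Of all genes tested, 16.1% lay fully below in lung. From library to library in liver the subunits varied together: the 5 other than Mcm3 were highest of their group in control 2, and all 6 in knockout-labelled 1. Per kilobase of exon, with all annotated transcripts merged, Mcm3 was set against the mean of the other 5 subunits. This ratio was 4.0 ± 0.862 in liver controls and 2.09 ± 0.402 in knockout-labelled liver (SD, n = 3 each). In lung this ratio went from 1.73 ± 0.0711 to 1.01 ± 0.0807 (n = 3 each), and in heart from 1.47 ± 0.17 to 1.30 ± 0.0316 (n = 2 each). The ratios did not overlap between groups in any of the 3 tissues, but in heart they nearly met. Heart controls had 1.59 and 1.35, against 1.32 and 1.28, and Mcm3 itself was higher in knockout-labelled heart. With 2 libraries a group, 30% of all genes tested lay fully above and 29% fully below in heart. Liver controls stood apart from the other groups through their Mcm3 level of 30.8 CPM per kilobase.

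In heart the MCM genes stood higher in knockout-labelled cells. Mcm2 (chromosome 6, 88883474 to 88898780, minus strand) was at 19.6 and 19.3 CPM for controls, against 52.1 and 41.4 CPM for knockout-labelled hearts. That was a log2 rise of 1.26 (SE 0.25, adjusted p = 0.00363), the heart call among the 46 genes that held in all 23 other settings run. All 6 MCM genes had both knockout-labelled heart libraries above both controls, as did 30% of all genes tested. The log2 changes of the 6 ran from 0.33 (Mcm7) to 1.26 (Mcm2), but only Mcm2 passed. The genes Mcm4 and Mcm6 missed the threshold narrowly, with adjusted p = 0.0563 and 0.0513.

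**Figure D2:**
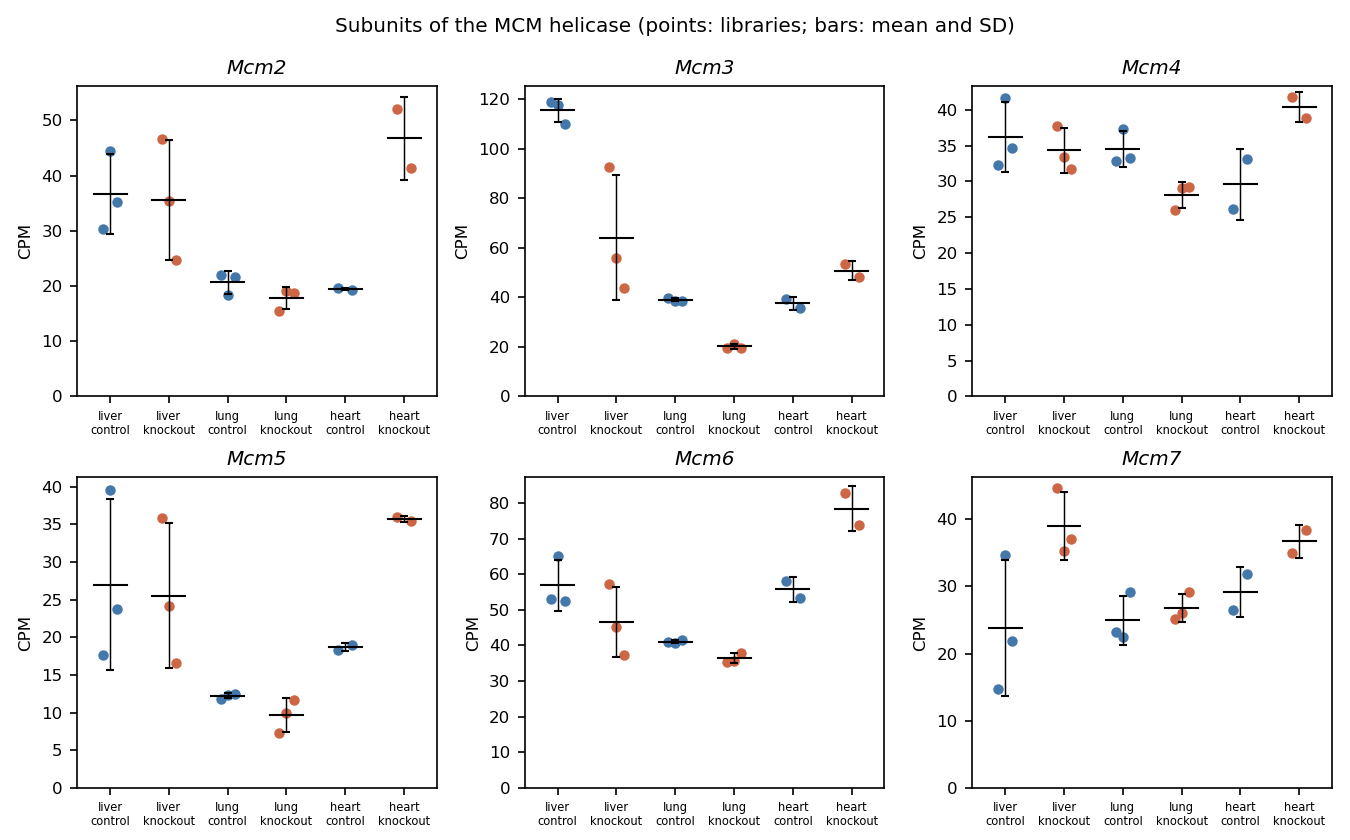
CPM of the 6 MCM helicase genes (1 panel each, axes from 0) in each library, by tissue and label; points are libraries, horizontal bars means and vertical bars SD. Mcm3 fell from 119, 118 and 110.0 CPM to 92.7, 55.9 and 44.0 CPM in liver and stood at 19.6 to 21.3 CPM in knockout-labelled lung, while heart points of all 6 genes were higher in the knockout-labelled libraries.

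Of the other replication genes, 3 more passed somewhere. Tyms, which makes thymidylate for DNA, rose in heart from 11.1 and 8.40 CPM to 21.3 and 27.7 CPM (log2 change 1.33, SE 0.33, adjusted p = 0.0138). Liver had 5.61, 12 and 6.90 CPM of Tyms against 17.8, 12.7 and 11.9 CPM, which overlap and missed the threshold (log2 0.80, adjusted p = 0.0561). Gins2, which encodes part of the GINS complex that joins the helicase, rose in heart from 0.696 and 2.02 CPM to 5.95 and 5.17 CPM (log2 change 2.03, SE 0.61, adjusted p = 0.0329). Rrm1, the large subunit of ribonucleotide reductase, was at 43.9, 64.9 and 56.4 CPM in liver controls and 47.9, 39.1 and 33.4 CPM in the others. These liver values of Rrm1 overlap, and its call lay at the edge (log2 −0.46, SE 0.15, adjusted p = 0.0498) and ended in 17 of 23 other settings. The sliding clamp gene Pcna hardly moved, with log2 −0.06, −0.01 and 0.08 in liver, lung and heart.

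Over the 16 replication genes, 1 rose and 2 fell in liver, 1 fell in lung and 3 rose in heart, with median log2 changes of −0.05, −0.08 and 0.58. In heart, 13 of the 16 had every knockout-labelled library above every control, against 30% of all genes tested, and none had every one below, against 29%. In liver 1 of the 16 lay fully above and 1 fully below, against 18% and 19% of all genes. Lung had 1 above and 4 below, against 13.3% and 16.1%. The S-phase regulators Ccne1, Ccne2, E2f1 and Cdc6 passed in no tissue. E2f1 was at 7.11 and 6.07 CPM in heart controls and 13.5 and 13.2 CPM in knockout-labelled heart (log2 1.01, SE 0.69, adjusted p = 0.333), and passed with heart libraries fitted alone (adjusted p = 0.0199).

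The 13 mitosis genes moved as a block from library to library. Their summed level in liver controls was 73.1, 333 and 124 CPM, and in knockout-labelled liver 218, 169.8 and 81.3 CPM. In lung the sums were 63.7, 20.9 and 47.9 CPM in controls and 57.2, 92.2 and 30.4 CPM in the others. Liver control 2 had the highest value of its group for 13 of the 13 genes, at a median of 3.70 times the mean of the other 2 libraries. Lung control 2 was lowest of its group for 12 of the 13, at a median of 0.236 times the others, and knockout-labelled liver 3 was also lowest for 12 of 13. In a bulk sample, fewer cycling cells and less RNA of these genes per cell cannot be told apart.

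No mitosis gene passed in liver or in lung by edgeR's quasi-likelihood test, none had an unadjusted p under 0.05 there, and DESeq2 also called 0 of 13 in both tissues. Median log2 changes were −0.15 in liver and 0.59 in lung, where 11 of the 13 were positive. Mki67, whose product coats the chromosomes of cycling cells, shows the spread between libraries. It was at 15, 70.7 and 22.4 CPM in liver controls and 41.7, 31.4 and 12.5 CPM in knockout-labelled liver. In lung it was at 13.5, 2.69 and 9.59 CPM against 11.9, 20.3 and 4.62 CPM. The groups overlapped in both tissues, and the highest liver value and the lowest lung value both lay in a control library that is male.

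In heart every one of the 13 mitosis genes had both knockout-labelled libraries above both controls, against 30% of all genes tested. The median log2 change of the 13 was 1.44. Ccnb1 (chromosome 13, 100778650 to 100786570, minus strand), the cyclin that takes Cdk1 into mitosis, was at 1.63 and 0.305 CPM for controls, against 7.68 and 10.2 CPM for knockout-labelled hearts. Behind these values were 56 and 11 counts in the controls and 314 and 400 counts in the others. Ccnb1 was the 1 mitosis gene that passed, at log2 3.21 (SE 1.02, adjusted p = 0.0416), and this call ended in 8 of 23 other settings, leaving out any single heart library among them, with adjusted p up to 0.235. Cdk1, its kinase, was at 5.25 and 4.63 CPM against 16 and 19.9 CPM (log2 change 1.86, SE 0.74, adjusted p = 0.096). Top2a, which untangles DNA before division, was at 20.7 and 14.7 CPM against 44.8 and 51.3 CPM (log2 change 1.44, SE 0.81, adjusted p = 0.238). Heart groups did not overlap for either gene. Among female heart libraries the 13 genes summed to 233 CPM in the 1 knockout-labelled library and to 114 and 89.6 CPM in the controls. The spread these tests use is shared by all 6 groups and so takes in the uneven liver and lung libraries. With the 4 heart libraries fitted alone, 11 of the 13 mitosis genes and 19 of the 46 passed (17 higher, 2 lower), in a fit that called 3483 genes in all. DESeq2 called 3 of the 13 and 12 of the 46, with 4624 genes in all, beside 3786 in the fit of all 6 groups. Aurka, a spindle kinase, and Cdc20, which starts the exit from mitosis, were the 2 that did not pass with heart alone.

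**Figure D3:**
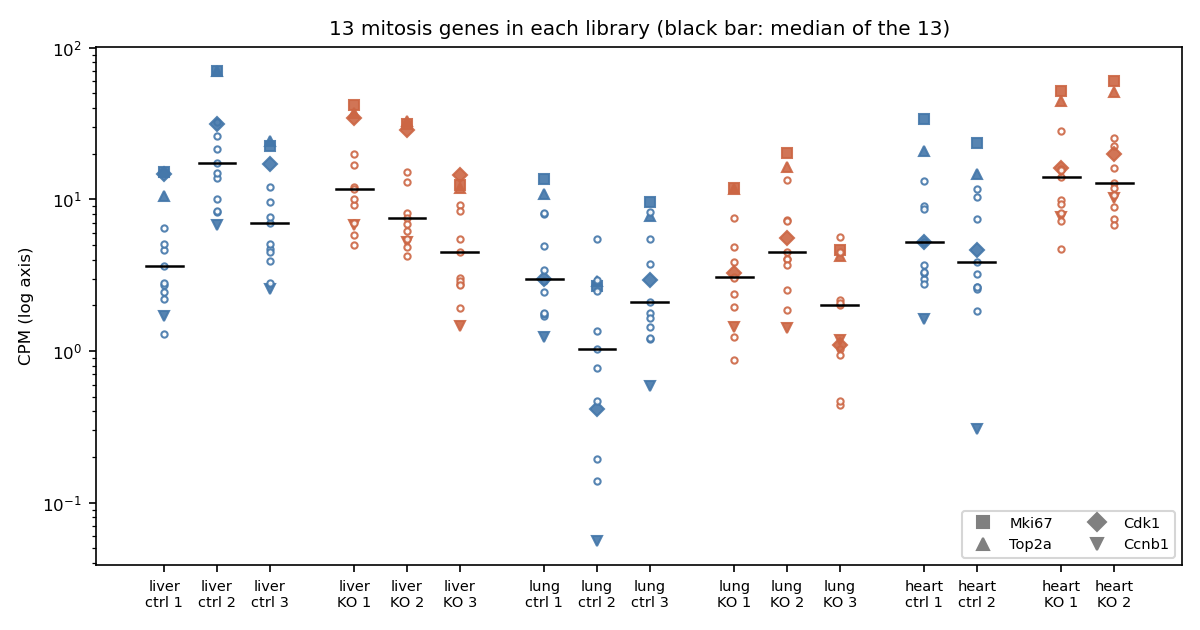
CPM (log axis) of the 13 mitosis genes in each of the 16 libraries, with Mki67, Top2a, Cdk1 and Ccnb1 as filled symbols, the other genes as open circles and black bars for the median of the 13. Liver control 2 stands above and lung control 2 below the other controls of its tissue, and both knockout-labelled heart libraries stand above both heart controls.

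Other markers moved with the heart result. Of 20 leukocyte markers, 18 were tested and 9 rose, and their summed level was 30.3 and 63.0 CPM in heart controls and 205 and 329 CPM in knockout-labelled heart. In both heart controls Cd3e and Cd3g were at 0. Of 12 lung epithelium markers 9 rose, with sums of 5.37 and 7.07 CPM against 116 and 169.5 CPM; Nkx2-1 was at 0 in both controls. Endothelial markers summed to 17703 and 18586 CPM for controls, against 10782 and 12753 CPM for the others, with 7 of 12 lower. Megakaryocyte markers summed to 25.8 and 27.6 CPM against 85.1 and 88.7 CPM, with 3 of 8 higher, and cardiomyocyte markers to 198 and 309 CPM against 176 and 150.2 CPM, with 4 of 12 lower. Stromal and mural markers summed to 1577 and 1725 CPM in heart controls and 1993 and 2313 CPM in the others, with 0 of 12 called. The part of these shifts, and of sex, in the heart result was not tested.

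**Figure D4:**
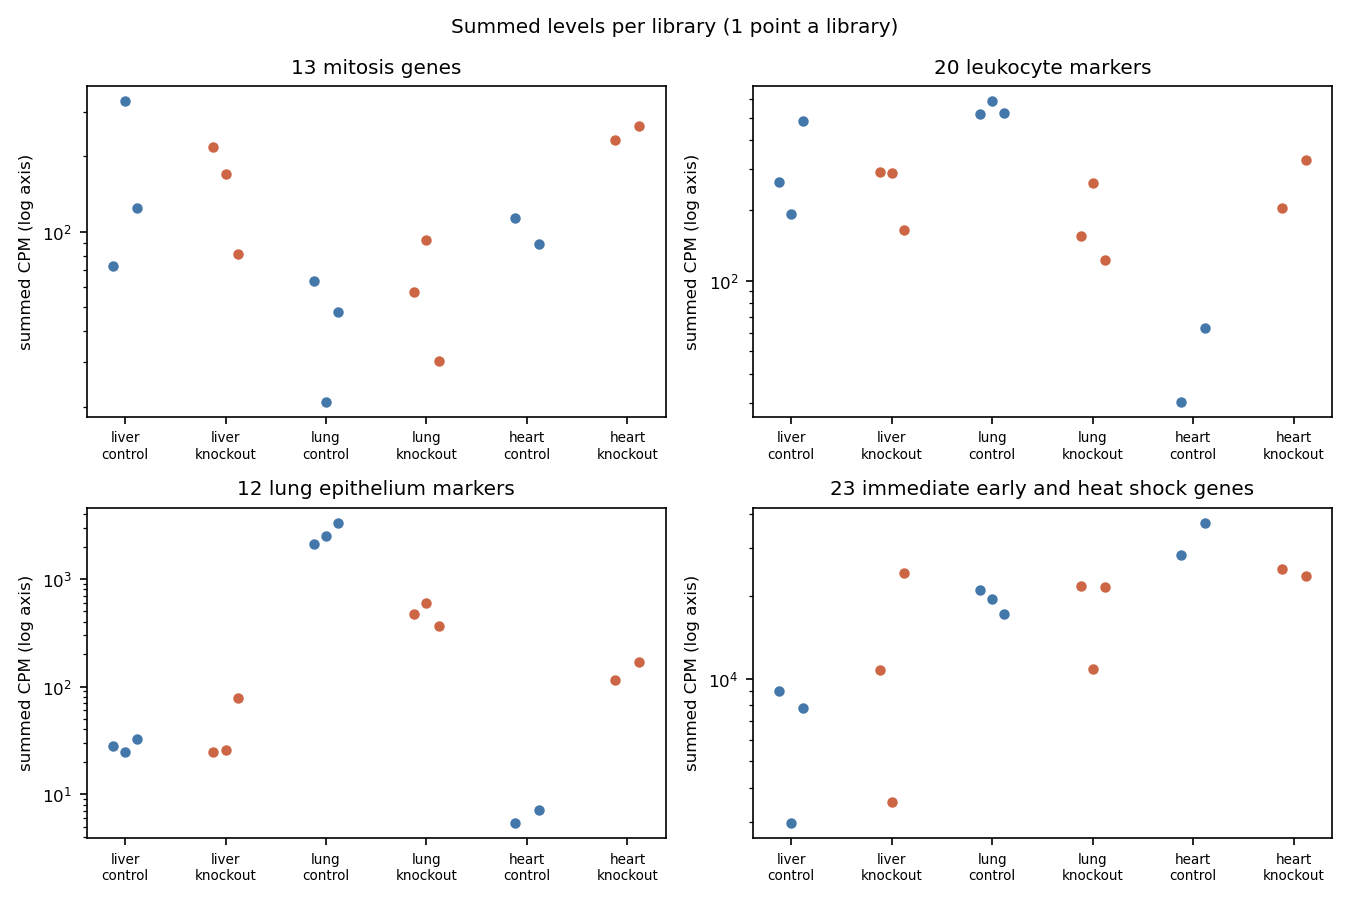
Summed CPM (log axis) per library of the 13 mitosis genes, 20 leukocyte markers, 12 lung epithelium markers, and 23 immediate early and heat shock genes; each point is a library. In heart the mitosis genes went from 89.6 and 114 CPM to 233 and 265 CPM while leukocyte and lung epithelium markers also rose.

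All 3 D cyclins fell in liver. Ccnd1 (chromosome 7, 144929931 to 144939925, minus strand) was at 495, 348 and 332 CPM in liver controls and 260.5, 138 and 77.4 CPM in knockout-labelled liver. Ccnd2 (chromosome 6, 127125162 to 127152193, minus strand) was at 304, 230.2 and 238 CPM against 131, 118 and 105 CPM. Ccnd3 was at 213, 181 and 198 CPM against 125, 109 and 75.9 CPM. For each of them all knockout-labelled liver libraries lay below all controls, as for 19% of all genes tested. The log2 changes were −1.30 for Ccnd1 (SE 0.36, adjusted p = 0.0194), −1.13 for Ccnd2 (SE 0.18, adjusted p = 0.000492) and −0.94 for Ccnd3 (SE 0.17, adjusted p = 0.00175). The calls for Ccnd2 and Ccnd3 held in all 23 other settings; that for Ccnd1 ended with liver alone, without control 1, without knockout-labelled 2 and without the libraries numbered 2 in the descriptions (adjusted p up to 0.116). Per kilobase of exon, with all annotated transcripts merged, Ccnd1 had the highest value of the 3 in liver controls. It was at 83.2 CPM per kilobase, beside 27.3 for Ccnd2 and 22.5 for Ccnd3. Merged length can exceed that of the transcript present, so the order of the transcripts themselves may differ.

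Other markers moved in the same liver libraries. Of 12 endothelial markers 6 were lower, with sums of 20966 to 23174 CPM in controls and 13388 to 19424 CPM in knockout-labelled liver. Of 8 megakaryocyte markers 4 were higher, with 233 to 324 CPM against 626 to 692 CPM. Most of these sums came from 1 gene, Clec1b, at 198 to 281 CPM against 430 to 456 CPM. Of 12 hepatocyte markers 2 were lower, with 845 to 2977 CPM against 665 to 1049 CPM, which overlap. The part of these shifts in the liver results for D cyclins, CDK inhibitors and the p53 and Gadd45 group was not tested.

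Lung and heart gave no call for a D cyclin by edgeR or DESeq2. At an unadjusted p under 0.05, edgeR gave 0 of 3 in lung and 1 of 3 in heart. Lung had 71.1, 52.8 and 57.2 CPM of Ccnd2 in controls and 67.0, 63.0 and 43.1 CPM in the others, which overlap (log2 −0.06, adjusted p = 0.876). Ccnd1 in lung was at 149, 126 and 122 CPM against 139, 228 and 121 CPM (log2 change 0.30, adjusted p = 0.67). In heart Ccnd3 was at 142 and 142 CPM for controls, against 80.6 and 115 CPM for the others, without overlap (log2 −0.54, SE 0.21, adjusted p = 0.0912).

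Among the CDK inhibitors, Cdkn1a and Cdkn2b rose in liver, and Cdkn1b and Cdkn1c fell in heart. Cdkn1a (chromosome 17, 29090976 to 29100727, plus strand) encodes p21, the main arrest protein downstream of p53. It was at 80.9, 54.8 and 42.2 CPM in liver controls and 206, 129 and 228 CPM in knockout-labelled liver, with no overlap. Cdkn2b encodes an inhibitor of the kinases of the D cyclins, and had 5.30, 4.36 and 5.01 CPM against 14.4, 10.4 and 11.5 CPM in liver, again with no overlap. The log2 changes were 1.66 for Cdkn1a (SE 0.25, adjusted p = 0.000411) and 1.31 for Cdkn2b (SE 0.25, adjusted p = 0.00204), and both calls held in all 23 other settings. Lung Cdkn1a started far higher, at 824, 709 and 555 CPM in controls, and was at 966, 901 and 775 CPM in the others (log2 0.34, adjusted p = 0.458). Heart had 792 and 746 CPM against 653 and 825 CPM (log2 change −0.06, adjusted p = 0.933).

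Cdkn1c (chromosome 7, 143458339 to 143461050, minus strand), an imprinted gene for the inhibitor p57, was at 71.2 and 92.8 CPM in heart controls and 17.7 and 33.7 CPM in knockout-labelled heart. Cdkn1b, the gene for the inhibitor p27 of resting cells, was at 149 and 218 CPM in heart controls and 101 and 113 CPM in the others. Neither gene overlapped between the heart groups. The log2 changes were −1.67 for Cdkn1c (SE 0.34, adjusted p = 0.00439) and −0.78 for Cdkn1b (SE 0.18, adjusted p = 0.00779). Leaving out knockout-labelled heart 1 ended both calls, and leaving out control 2 ended that for Cdkn1b, with adjusted p up to 0.0639 for Cdkn1c and 0.116 for Cdkn1b. In liver Cdkn1b stood at 114, 122 and 125 CPM in controls and 147, 147 and 163 CPM in the others, which do not overlap but did not pass (log2 0.34, SE 0.14, adjusted p = 0.12). Cdkn1c gave log2 0.08 in liver and −0.40 in lung, neither past the test.

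Cdkn2a, the locus of p16 and Arf, and Cdkn2c passed in no tissue. Cdkn2a was at 4.98, 7.46 and 6.20 CPM in liver controls and 14.7, 10.4 and 6.10 CPM in the others. In lung it was at 1.77, 3.35 and 2.54 CPM against 4.68, 8.44 and 2.73 CPM, and in heart all 4 libraries lay under 1 CPM. Its log2 changes were 0.75 and 1.05 in liver and lung (adjusted p = 0.205 and 0.129), with overlapping libraries in both.

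**Figure D5:**
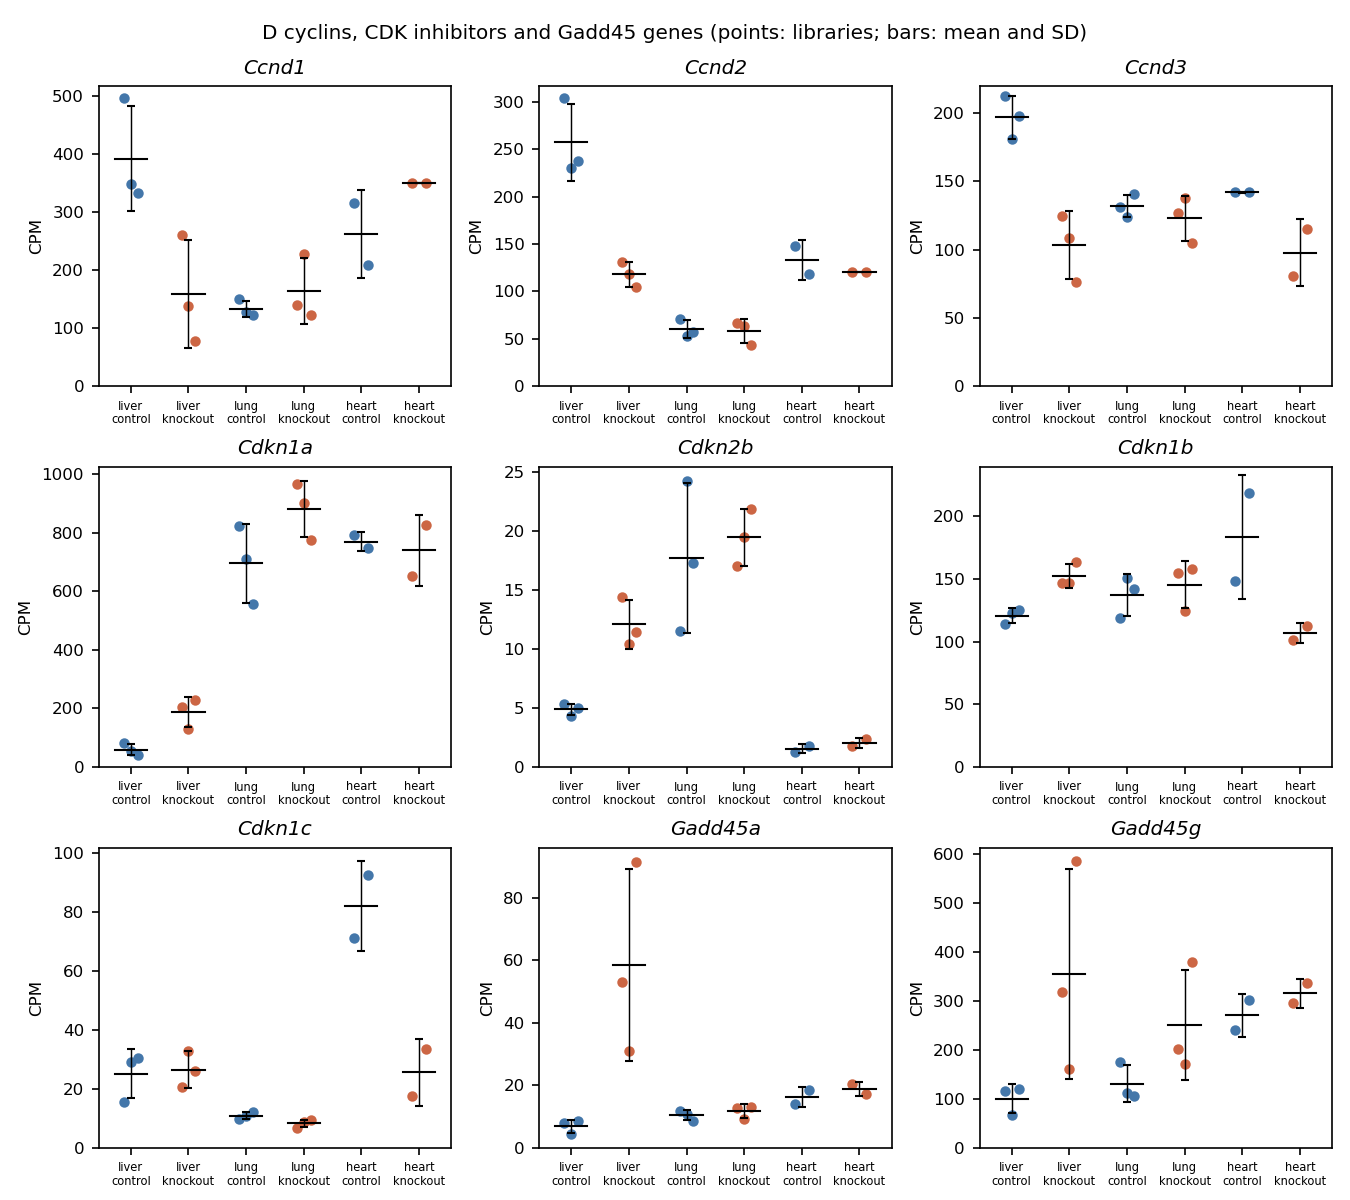
CPM of the 3 D cyclins, 4 CDK inhibitors, Gadd45a and Gadd45g (axes from 0) in each library, by tissue and label; points are libraries, horizontal bars means and vertical bars SD. In liver the D cyclins were lower and Cdkn1a, Cdkn2b, Gadd45a and Gadd45g higher in all 3 knockout-labelled libraries, and in heart Cdkn1b and Cdkn1c were lower in both.

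Gadd45a had the largest change of the 46 genes in liver. Gadd45a (ENSMUSG00000036390, chromosome 6, 67035096 to 67037457, minus strand) encodes a stress protein that p53 induces and that can block entry into mitosis. It was at 7.83, 4.53 and 8.45 CPM in liver controls and 52.9, 31.1 and 91.5 CPM in knockout-labelled liver. The lowest knockout-labelled value was more than 3 times the highest control. Lung had 11.8, 10.9 and 8.67 CPM against 12.8, 9.08 and 13.2 CPM, and heart 13.9 and 18.6 CPM against 20.5 and 17.2 CPM, with overlap in both. The liver rise was 8.42-fold (log2 3.07, SE 0.35, adjusted p = 4.14e-05) and held in all 23 other settings, while log2 was 0.16 in lung and 0.21 in heart.

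Gadd45g rose in liver too, from 116, 67.0 and 119.7 CPM to 318, 162 and 587 CPM (log2 change 1.82, SE 0.42, adjusted p = 0.00713), a call that held in all 23 other settings. Gadd45b went from 40.9, 10.7 and 20.8 CPM to 60.4, 10.5 and 139 CPM there, with full overlap at library 2 (log2 1.53, SE 0.64, adjusted p = 0.113). In lung Gadd45b was at 102, 88.8 and 76.3 CPM in controls and 249, 140.5 and 248 CPM in the others, with no overlap but no call (log2 1.25, SE 0.63, adjusted p = 0.26). The 3 Gadd45 genes and Cdkn1a shared their order among knockout-labelled liver libraries, with number 3 highest and number 2 lowest. The 23 immediate early and heat shock genes, which respond to stress and to cell isolation, had the same order there, at 10788, 3549.6 and 24404 CPM for libraries 1, 2 and 3. In liver controls these genes summed to 9015, 2968 and 7850.4 CPM, and 6 of the 23 rose in liver. The part of these 23 genes in the Gadd45 and Cdkn1a results was not tested.

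The p53 gene itself and the death genes Bbc3 and Bax passed the test in no single tissue. Mdm2, the ligase that degrades p53 and is its target, was at 62.0, 53.4 and 51.9 CPM in liver controls and 72.3, 72.4 and 73.0 CPM in the others, with no overlap (log2 0.38, SE 0.11, adjusted p = 0.0299; 7 of 23 other settings ended the call). Ccng1, another p53 target, fell in liver, from 49.7, 57.5 and 50.5 CPM to 41.2, 41.3 and 32.7 CPM (log2 change −0.45, SE 0.13, adjusted p = 0.025). It also fell in heart, from 44.2 and 54.1 CPM to 31.1 and 38.0 CPM (log2 change −0.51, SE 0.16, adjusted p = 0.0384). Neither comparison overlapped, but the Ccng1 calls ended in 4 and 10 of 23 other settings, with adjusted p up to 0.11 and 0.273. In liver Ccng1 thus fell while Cdkn1a, Gadd45a and Mdm2 rose, and p53 is known to induce all 4. Whether p53 activity changed was not tested. Trp53 had log2 changes of 0.37, 0.17 and 0.36, Bbc3 0.08, 0.32 and −0.10, and Bax 0.32, 0.47 and 0.52 in liver, lung and heart, none past the test in a single tissue.

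Averaged over the 3 tissues with equal weight, 14 of the 46 genes passed, 9 higher and 5 lower, against 29.3% of all genes (15.2% higher, 14.1% lower). This average uses the same libraries as the single tissues and adds no independent support. Bax, which permeabilises mitochondria in cell death, passed here and in no single tissue. Its level in lung was 42.1, 41.6 and 36.4 CPM in controls and 43.8, 65.2 and 57.1 CPM in the others, and in heart 46.3 and 38.0 CPM against 62.9 and 58.0 CPM. Neither of these tissues overlapped for Bax. Liver did, at 58.9 to 68.2 CPM in controls and 63.2 to 91.7 CPM in the others. The mean log2 change of Bax was 0.44 (SE 0.10, adjusted p = 0.00435), called in all 22 other settings run. Gadd45b also passed only on average (log2 1.23, SE 0.39, adjusted p = 0.0303), though 8 of 22 other settings ended that call.

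The change at knockout was then compared between tissues by the interaction term of the same fit; these comparisons share libraries with each other. Between lung and liver, 3 of the 46 genes differed, 1 higher and 2 lower, against 6.2% of all genes (3.13% higher, 3.08% lower). They were Ccnd2 (log2 difference 1.06, SE 0.25, adjusted p = 0.0201), Cdkn1a (−1.32, SE 0.35, adjusted p = 0.0382) and Gadd45a (−2.91, SE 0.47, adjusted p = 0.00241). Between heart and liver 8 differed, 4 each way, against 8.32% of all genes (4.62% higher, 3.7% lower). Gadd45a (−2.86, adjusted p = 0.00473), Cdkn1a (−1.72, adjusted p = 0.0158), Cdkn1b (−1.12, adjusted p = 0.00879) and Cdkn1c (−1.76, adjusted p = 0.0244) had lower changes in heart. Mcm2 (1.31, adjusted p = 0.0228), Mcm3 (1.28, adjusted p = 0.0191), Mcm6 (0.78, adjusted p = 0.0372) and Ccnd2 (0.98, adjusted p = 0.0411) had higher ones. So the Mcm3 change in heart differed from that in liver by a test of the difference, and also from that in lung (1.38, SE 0.30, adjusted p = 0.0176).

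Between heart and lung 4 of the 46 differed, 3 higher and 1 lower, against 6.4% of all genes (3.83% higher, 2.57% lower). Besides Mcm3 these were Mcm2 (1.48, adjusted p = 0.0163), Mcm4 (0.74, adjusted p = 0.0401) and Cdkn1b (−0.86, adjusted p = 0.0377). No mitosis gene gave a difference between tissues by edgeR or DESeq2, although all 13 had a larger log2 change in heart than in liver or lung. At an unadjusted p under 0.05, edgeR gave 0 of 13 between lung and liver, 1 between heart and liver and 0 between heart and lung. Gadd45a was the 1 gene whose difference held in all 22 other settings, between lung and liver and between heart and liver. The differences that involve heart rest on 2 libraries a group: without knockout-labelled heart 1, control 1 or control 2, the 8 between heart and liver became 2, and the 4 between heart and lung became 0, 1 and 1.

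The control endothelia of the 3 tissues differed in these genes. Between lung and liver controls, 33 of the 46 differed, 5 higher and 28 lower in lung, against 47% of all genes (24.6% higher, 22.4% lower). Of the 13 mitosis genes, 10 were lower in lung, with Cdk1 at 2.98, 0.416 and 2.96 CPM against 14.6, 31.4 and 17.1 CPM in liver (log2 −3.31, SE 0.65, adjusted p = 0.000786). No lung control reached a liver control for Cdk1, and groups that do not overlap made up 32% (lung above) and 29.8% (lung below) of all genes. The count of 33 became 17 without liver control 2 and 20 without lung control 2, and the call for Cdk1 held in each of those fits. All 3 D cyclins were highest in liver and lowest in lung, and Ccnd2 had log2 −2.09 in lung against liver (SE 0.18, adjusted p = 5.5e-07).

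The CDK inhibitors gave each tissue its own order in controls. Cdkn1a was at 42.2 to 80.9 CPM in liver, 555 to 824 CPM in lung and 746 to 792 CPM in heart, or log2 3.55 (SE 0.27, adjusted p = 1.76e-07) and 3.70 (SE 0.29, adjusted p = 3.38e-07) above liver, while heart and lung did not differ beyond their spread (log2 0.14, adjusted p = 0.736). Even after its rise, Cdkn1a in knockout-labelled liver, at 129 to 228 CPM, lay below every lung and heart library. Cdkn1c was highest in heart, then liver (15.5 to 30.6 CPM), then lung (9.79 to 12.3 CPM), and each step passed, with log2 1.71 (adjusted p = 0.00042) from liver to heart and −1.19 (adjusted p = 0.00307) from liver to lung. In knockout-labelled heart its 17.7 and 33.7 CPM fell within or next to the liver control range. Cdkn2b was highest in lung, with 11.6, 24.3 and 17.3 CPM, and lowest in heart, with 1.31 and 1.80 CPM, and Cdkn2a was highest in liver and at 0.580 and 0.610 CPM in heart. Between heart and liver controls 15 of the 46 differed (7 higher, 8 lower), against 47.6% of all genes (23.8% higher, 23.9% lower), with all 6 CDK inhibitors among them; all genes did not overlap in 34.6% (heart above) and 34.8% (heart below). Between heart and lung controls 5 differed (3 higher, 2 lower), against 29.5% of all genes (13.5% higher, 16.1% lower): Mcm6, Ccnd2 and Cdkn1c higher in heart, and Cdkn2a and Cdkn2b higher in lung. None of these 5 overlapped between heart and lung, but they were picked by the test on these same libraries, so this adds no support. Over all genes, 28.6% (heart above) and 30.6% (heart below) did not overlap. The 23 immediate early and heat shock genes also differed among controls. They summed to 2968 to 9015 CPM in liver, 17289 to 21021 CPM in lung and 28379 to 37166 CPM in heart. In the same order, stromal and mural markers summed to 50.9 to 68.5, 407 to 726 and 1577 to 1725 CPM. Lung epithelium markers summed to 24.5 to 32.7, 2129 to 3342 and 5.37 to 7.07 CPM. The part of these lists in the differences between controls was not tested.

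Further genes of the same pathways were read from lists chosen by function. Their counts are read against all genes tested, of which 9.54% were higher and 9.87% lower in liver, 4.35% and 4.11% in lung, and 10.2% and 9.09% in heart. Of 43 other replication genes, 3 rose and 4 fell in liver, 1 rose and 1 fell in lung, and 4 rose and 2 fell in heart. Timeless, which guards replication forks, fell in each tissue, from 72.6, 78.8 and 69.4 CPM to 36.6, 25.1 and 33.0 CPM in liver, from 73.9, 78.2 and 67.8 CPM to 48.7, 21.6 and 30.6 CPM in lung, and from 205 and 194 CPM to 87.8 and 75.7 CPM in heart. No Timeless group overlapped, and the log2 changes were −1.22, −1.12 and −1.29 (adjusted p = 0.0016, 0.00681 and 0.00524). The lung call for Timeless ended without the libraries numbered 2 in the descriptions (adjusted p = 0.0861). Pole, the catalytic subunit of a replicative polymerase, rose in liver from 4.30, 11.7 and 6.44 CPM to 27.4, 22.0 and 19.7 CPM (log2 change 1.63, adjusted p = 0.0103). Orc6, a subunit of the origin recognition complex, rose there from 32.5, 43.2 and 37.4 CPM to 63.1, 69.1 and 53.6 CPM (log2 change 0.72, adjusted p = 0.00105). The lung rise was that of Cdc7, a kinase that fires origins, from 4.6, 4.54 and 4.57 CPM to 9.80, 11.8 and 13 CPM (log2 change 1.33, adjusted p = 0.00429).

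Of 72 other mitosis genes, 0 rose and 1 fell in liver, 1 rose in lung, and 8 rose and 1 fell in heart, where 8 of 72 is close to the 10.2% of all genes that rose. Cenpa, the centromere histone, was the one that fell in liver, from 58.5, 74.3 and 67.6 CPM to 19.9, 20.7 and 8.39 CPM, with no overlap (log2 −2.03, adjusted p = 0.00089). In liver controls Cenpa did not share the swing of the mitosis genes, whose control 2 was highest for 72 of these 72 genes but here only by a small margin. In heart 64 of the 72 had every knockout-labelled library above every control, against 30% of all genes tested, with a median log2 change of 1.12. Cks1b and Cks2, small partners of Cdk1, rose there from 3.13 and 2.11 CPM to 9.25 and 10.2 CPM and from 2.73 and 2.11 CPM to 8.81 and 10.0 CPM. Their log2 changes were 1.89 (adjusted p = 0.0123) and 1.96 (adjusted p = 0.0062), and leaving out heart control 2 ended both calls. In lung Cdc25b, a phosphatase that activates Cdk1, rose to 43.8, 62.4 and 78.2 CPM, with controls at 17.1, 22.2 and 25.2 CPM (log2 change 1.51, adjusted p = 0.00427).

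Of 30 genes that control the G1 phase, 4 rose and 1 fell in liver, 2 fell in lung, and 4 rose and 1 fell in heart, close to the shares of all genes that rose in liver (9.54%) and heart (10.2%). Cdk6, the kinase that D cyclins activate, rose in liver from 13.2, 10.5 and 10.8 CPM to 25.9, 23.3 and 21.9 CPM (log2 change 1.04, adjusted p = 0.00215). In lung it fell to 41.7, 31.2 and 38.4 CPM, with controls at 81.3, 55.5 and 52.3 CPM (log2 change −0.76, adjusted p = 0.0263). In heart Cdk6 rose from 27.4 and 22.4 CPM to 56.1 and 36.8 CPM (log2 change 0.90, adjusted p = 0.0187). No tissue overlapped for Cdk6, though 4 of 23 other settings ended the lung call, and leaving out knockout-labelled heart 1 or heart control 2 ended the heart call. Myc, a growth regulator, rose in liver from 54.3, 17.4 and 28.1 CPM to 222, 46.8 and 413 CPM, groups that overlap (log2 2.77, adjusted p = 0.011), with the same order of libraries as the Gadd45 genes.

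Of 27 other p53 targets, 3 rose and 4 fell in liver, 4 rose and 1 fell in lung, and 5 rose and 1 fell in heart. Phlda3, a p53 target that restrains Akt, rose in all 3 tissues, from 11.8, 16.3 and 11.8 CPM to 37.3, 40.4 and 29.6 CPM in liver, from 59.3, 66.1 and 70.7 CPM to 145, 319.9 and 126 CPM in lung and from 22.5 and 29.4 CPM to 197 and 219 CPM in heart. No Phlda3 group overlapped, the log2 changes were 1.43, 1.59 and 3.0 (adjusted p = 0.00306, 0.00343 and 0.000153), and each call held in all 23 other settings. The death receptor gene Fas went the other way in liver, from 71.6, 91.7 and 85.4 CPM to 29.2, 26.5 and 25.2 CPM (log2 change −1.62, adjusted p = 5.05e-05). Of 12 genes of the Bcl2 family, 3 rose in liver, 4 in lung and 3 in heart, and 1 fell in heart. Bcl2l1, which encodes the survival protein Bcl-xL, was among the risers in each tissue, with log2 changes of 1.13, 1.30 and 1.30 (adjusted p = 0.00564, 0.00574 and 0.00988). Without the libraries numbered 2 in the descriptions the call for Bcl2l1 ended in each tissue, and in heart also without knockout-labelled 2 or control 1. Its levels went from 89.7, 82.4 and 81.3 CPM to 243, 176 and 136 CPM in liver and from 187, 187 and 163 CPM to 304, 543 and 473 CPM in lung, and from 127 and 218 CPM to 365 and 484 CPM in heart.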

How the data were processed

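RNA was read from 16 libraries of sorted endothelial cells. The authors deposited 1 table of raw read counts per gene; per the submitters' processing notes, FastQC 0.11.5, STAR 2.7.6a and the GRCm38 build were used. The counting program, its strand setting and its annotation are not named in these sources, and the labels name 2 library kits, 1 of them stranded, without saying which library used which. Overlapping genes may therefore share reads. No column of per-sample values was left unused (0 columns).

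From the deposited counts, genes were kept by filterByExpr (minimum count 10, minimum total 15), which left 19646. Libraries were scaled by TMM, and edgeR 4.0.16 (R 4.3.3) fitted its quasi-likelihood model to all 6 groups together, with Benjamini-Hochberg adjustment over all genes tested and a threshold of 0.05. The method was tested on simulated data. Gene positions and exon lengths came from GENCODE M21, with the exons of all transcripts of a gene merged for its length. A group's difference is not tested by overlap; "no overlap" describes the libraries only.

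Alternatives were DESeq2 1.42.0, RLE factors in place of TMM, no filter on low counts, the tissues compared alone and the replicate number as a block. Each library was also left out in turn (a lone library is then assumed to vary like the other groups). Added after seeing the data was leaving out the 5 libraries numbered 2 in the descriptions, which are male. The members and the lists were chosen with earlier results of these data known. All 46 members could be named; from each further list up to 4 genes per tissue with the smallest adjusted p under the threshold, Erg and Fli1, and for marker lists the summed level, the highest member and markers at 0. The replicate numbers of titles and descriptions differ for 1 heart control, and no label ties a number to a shared animal or day.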

Additional observations from a re-analysis of the deposited data

Results flagged for a closer look

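For 15 results the knockout change differed between tissues by a test of the difference itself; the values are differences of log2 changes, and the comparisons share libraries. Between lung and liver these were Ccnd2 (1.06), Cdkn1a (−1.32) and Gadd45a (−2.91), the first higher and the others lower in lung. Between heart and liver, the change was higher in heart for the helicase genes Mcm2 (1.31), Mcm3 (1.28) and Mcm6 (0.78) and for Ccnd2 (0.98). It was lower in heart for the CDK inhibitors Cdkn1a (−1.72), Cdkn1b (−1.12) and Cdkn1c (−1.76), and for Gadd45a (−2.86). Between heart and lung, the change was higher in heart for Mcm2 (1.48), Mcm3 (1.38) and Mcm4 (0.74) and lower for Cdkn1b (−0.86).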

How the results depend on the processing

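Of the 46 genes, 6 of 12 calls in liver, 0 of 1 in lung and 1 of 7 in heart held in every setting. No change that passed in the main fit or in another setting reversed its direction between the 2. Over the genes followed, 308 changes that passed in neither had the other sign. DESeq2 called 2 in lung, 12 in heart, 6 between lung and liver and 8 between heart and lung controls; fitting only the tissues compared gave 2 in lung, 19 in heart, 4 between heart and liver and 14 between heart and lung controls. No filter on low counts gave 5 between lung and liver. Without the libraries numbered 2 in the descriptions, chosen after seeing the data, lung had 0 and heart 4. Leaving out 1 library gave 8 to 11 in liver, 1 to 2 in lung, 2 to 12 in heart (2 without knockout-labelled heart 1, 4 and 3 without heart controls 1 and 2, 12 without knockout-labelled liver 3), and 11 to 19 on average. It gave 1 to 4 between lung and liver (1 without lung control 2), 2 to 10 between heart and liver, and 0 to 5 between heart and lung. Among controls it gave 17 to 34 between lung and liver, 10 to 16 between heart and liver and 4 to 9 between heart and lung (9 without knockout-labelled liver 3). The cause of these shifts was not tested. The labels give same-numbered libraries no shared animal or day, but every library numbered 2 in the descriptions is male and the others are female. The median correlation of same-numbered libraries' deviations was 0.071 by title and 0.0764 by description, with 9 of 36 and 10 of 35 pairs over 0.1, beside 3 of 70 and 2 of 71 other pairs, so not every pair passed and the pairing was not taken as given. With the number as a replicate block, by title and by description, liver had 12 and 12 calls, lung 1 and 1, heart 8 and 5, and heart against lung controls 7 and 8. The average over tissues has no fit of only the tissues compared, and with 2 heart libraries a group the heart values are the least precise.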
